A study of Mus musculus with 12 samples.

Results

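Retinoic acid synthesis and response genes were described in dorsal root ganglia (DRG), the clusters of sensory neuron cell bodies beside the spinal cord. The set comprised 9 of the 49315 genes in the count table: Aldh1a1, Aldh1a2, Aldh1a3, Crabp1, Crabp2, Stra6, Dhrs3, Cyp26b1 and Rarb. Rows were found by gene symbol, 1 row per gene. The set was chosen on the DKO and Nf2 values of these same libraries, so its levels and genotype differences are given as a description, without a test.

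Retinoic acid is made from vitamin A, which circulates as retinol. Cells oxidise retinol reversibly to retinaldehyde, and retinaldehyde dehydrogenases then convert retinaldehyde irreversibly to retinoic acid. The acid enters the nucleus and activates paired retinoic acid and retinoid X receptors on DNA, while cytochromes of the Cyp26 family destroy it. In the nervous system this signal is known for patterning the hindbrain and spinal cord, for neurite outgrowth, and for its synthesis in the meninges, the membranes around the brain, the spinal cord and the nerve roots.

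The study asked how loss of focal adhesion kinase (FAK, encoded by Fak1, annotated as Ptk2) alters a mouse model of NF2-related schwannomatosis, in which nerve sheath tumors form. DRG RNA of 12 mice aged 10 months was sequenced, about 8 ganglia per mouse and 1 library per mouse. The 6 Nf2 mice carried Postn-Cre with Nf2 flox/flox, and the 6 DKO mice carried Fak1 flox/flox in addition. Both groups therefore share Cre and the loss of Nf2, and there was no group with intact Nf2. The Periostin promoter drives this Cre in the Schwann cell lineage, whereas each library holds all cells of the ganglion, so a lower value can reflect fewer cells of a type or less RNA per cell, which cannot be told apart. Each genotype had 3 mice labelled male and 3 labelled female. Nothing in the sources used here says more about how mice were related.

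Total counts ranged from 21129191 to 41250329 per mouse, and mitochondrial genes took 1.99% to 5.60% of them. DKO mouse 887 (5.60%) and Nf2 mouse 649 (4.45%) had the highest mitochondrial shares, and the next highest was 3.15% (Nf2 mouse 1048). Levels are counts scaled by the library total (CPM, counts per 1e6 reads). The 9 genes had from 43 to 53060 reads per mouse, and all 9 passed the filter on low counts, as did 18295 genes of the table. Ptk2 did not separate the genotypes in these whole-gene counts, at 65.8 to 75.5 CPM in Nf2 mice and 46.5 to 76.0 CPM in DKO mice. Markers of sensory neurons summed to between 5900 and 8223 CPM in every mouse and those of Schwann cells to between 7747 and 11311 CPM, so the labelled tissue was present throughout. Mouse 702, labelled male, had 496 CPM of Xist and 0.525 CPM of Ddx3y, like the mice labelled female.

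Aldh1a1 and Dhrs3 were lower in every DKO mouse than in any Nf2 mouse. Aldh1a2 and Crabp2 had higher means in DKO mice, with overlapping groups. Rarb and Crabp1 had lower means in DKO mice, Stra6 and Cyp26b1 had higher means that 1 mouse largely carried, and Aldh1a3 had similar means. Fold changes below are edgeR estimates on the log2 scale, DKO over Nf2, with their standard error (SE), and 0 means equal levels.

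Aldh1a1 (ENSMUSG00000053279, GRCm38 chromosome 19, 20492715 to 20643465) encodes retinaldehyde dehydrogenase 1. Among Nf2 mice its level was lowest at 1251 CPM (mouse 649), with a median of 1608, and highest at 1887 CPM (mouse 702). Among DKO mice it was lowest at 618 CPM (mouse 917), with a median of 683, and highest at 927 CPM (mouse 915). The groups did not overlap. Their means were 1576 ± 255 and 738 ± 131 CPM (SD, n = 6), a log2 fold change of -1.11 ± 0.13 (SE). In mean CPM, Aldh1a1 ranked 32nd of all genes in Nf2 mice and 119th in DKO mice.

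Aldh1a2 (ENSMUSG00000013584, chromosome 9, 71215789 to 71296243), the dehydrogenase that dominates in the embryo and is known from the meninges, differed in the other direction. Its level in Nf2 mice ran from 2.98 CPM (mouse 649) through a median of 6.39 to 11.3 CPM (mouse 1049). In DKO mice it ran from 8.28 CPM (mouse 887) through a median of 12.8 to 26.0 CPM (mouse 886). All 6 DKO mice were above the Nf2 median, and 3 were above the highest Nf2 mouse. The means were 6.76 ± 2.77 and 14.1 ± 6.70 CPM (SD, n = 6), a log2 fold change of 1.04 ± 0.32 (SE). Without mouse 886 the log2 fold change was 0.77.

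Aldh1a3 (ENSMUSG00000015134, chromosome 7, 66390890 to 66427517), the remaining retinaldehyde dehydrogenase, had 4.34 to 7.36 CPM in Nf2 mice with a median of 5.14. DKO mice had 3.22 to 7.89 CPM with a median of 4.78. The DKO range thus enclosed the Nf2 range, with a log2 fold change of -0.07 ± 0.21 (SE).

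**Figure D1:**
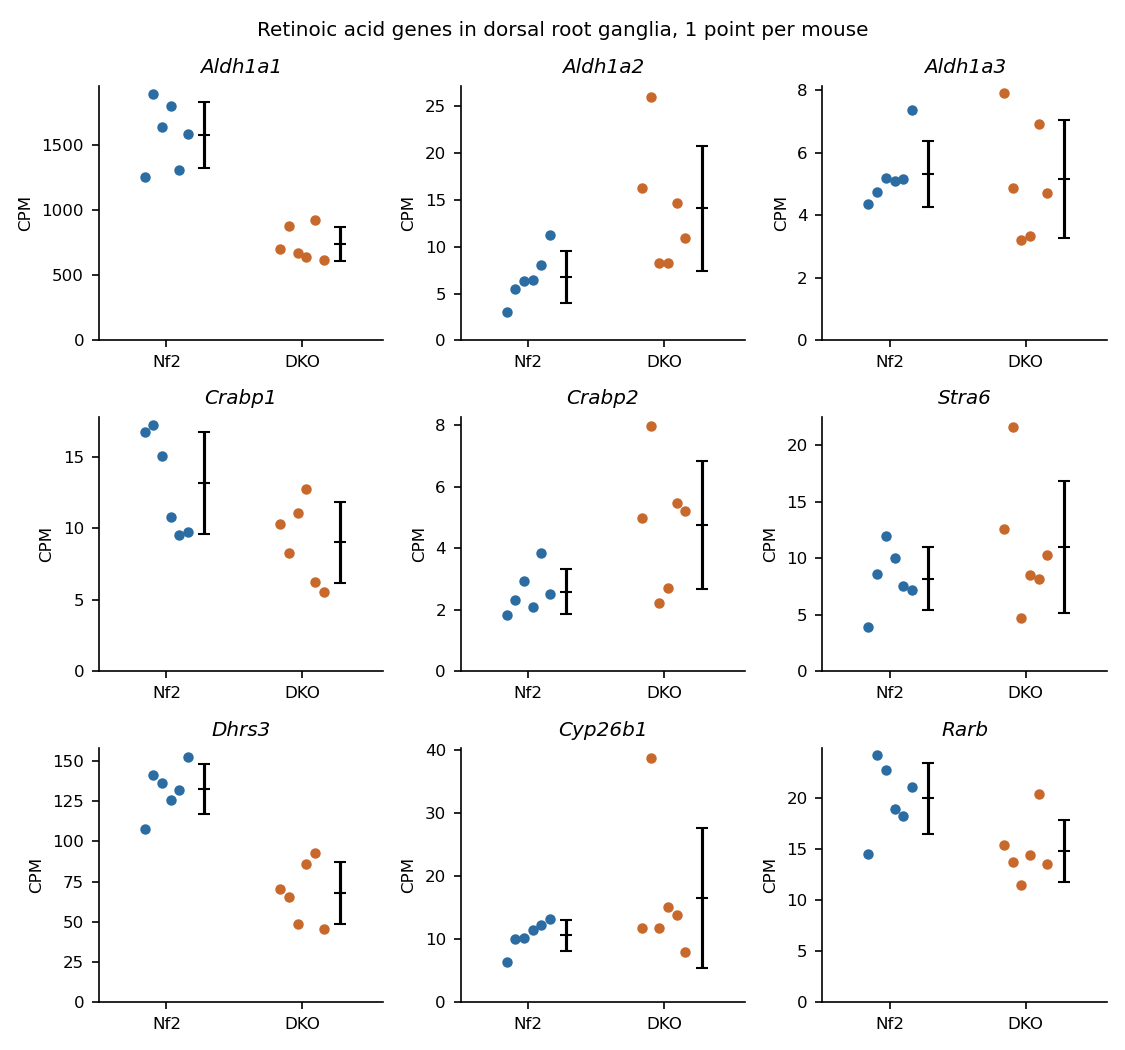
Level in CPM (vertical axes, from 0) of each of the 9 genes in 6 Nf2 mice (blue) and 6 DKO mice (orange), 1 point per mouse, with the group mean and SD as a black bar. The points of Aldh1a1 and Dhrs3 do not overlap between genotypes, and 1 DKO mouse stands far above the rest for Cyp26b1.

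Dhrs3 (ENSMUSG00000066026, chromosome 4, 144892827 to 144928209) encodes a retinaldehyde reductase, which returns retinaldehyde to retinol and so limits the supply for the dehydrogenases; retinoic acid is known to induce it. Its level in Nf2 mice ran from 108 CPM (mouse 649) through a median of 134 to 153 CPM (mouse 1049). In DKO mice it ran from 45.6 CPM (mouse 917) through a median of 67.9 to 92.6 CPM (mouse 915). The groups did not overlap. Their means were 133 ± 15.3 and 68.0 ± 19.1 CPM (SD, n = 6), a log2 fold change of -0.98 ± 0.16 (SE).

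Stra6 (ENSMUSG00000032327, chromosome 9, 58063788 to 58153996) encodes the membrane receptor through which cells take up retinol from its plasma carrier. Nf2 mice had 3.92 CPM (mouse 649) to 12.0 CPM (mouse 884) with a median of 8.05, and DKO mice had 4.69 CPM (mouse 887) to 21.6 CPM (mouse 886) with a median of 9.41. The ranges overlapped, with 4 of 6 DKO mice inside the Nf2 range. The log2 fold change was 0.40 ± 0.32 (SE), and 0.09 without mouse 886.

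The 2 cellular retinoic acid binding proteins differed from each other in direction. Crabp1 (ENSMUSG00000032291, chromosome 9, 54764748 to 54773110) encodes a protein known for binding retinoic acid in the cytoplasm and for passing it to degradation. It had 9.57 to 17.2 CPM in Nf2 mice with a median of 12.9, against 5.57 to 12.8 CPM in DKO mice with a median of 9.29. All 6 DKO mice lay below the Nf2 median and 3 lay below the lowest Nf2 mouse, with a log2 fold change of -0.56 ± 0.23 (SE).

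Crabp2 (ENSMUSG00000004885, chromosome 3, 87948666 to 87953376) encodes the carrier that delivers retinoic acid to its receptors in the nucleus. It had 1.83 to 3.85 CPM in Nf2 mice with a median of 2.41, against 2.22 to 7.96 CPM in DKO mice with a median of 5.10. The 2 DKO mice with the lowest levels, 887 and 914, lay within the Nf2 range and the other 4 lay above it. The log2 fold change was 0.85 ± 0.28 (SE).

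Cyp26b1 (ENSMUSG00000063415, chromosome 6, 84571414 to 84593908) encodes a retinoic acid hydroxylase that degrades the signal. Nf2 mice had 6.39 CPM (mouse 649) to 13.3 CPM (mouse 1049) with a median of 10.9. DKO mice had 7.99 CPM (mouse 917) to 38.7 CPM (mouse 886) with a median of 12.9, and the next highest DKO mouse had 15.2 CPM. The log2 fold change was 0.62 ± 0.32 (SE) with all mice and 0.18 without mouse 886, so this single library carried most of the difference.

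Rarb (ENSMUSG00000017491, chromosome 14, 16430839 to 16819156) encodes retinoic acid receptor beta, whose own promoter is a textbook retinoic acid target. Nf2 mice had 14.5 CPM (mouse 649) to 24.3 CPM (mouse 702) with a median of 20.1, and DKO mice had 11.5 CPM (mouse 887) to 20.5 CPM (mouse 915) with a median of 14.1. The groups overlapped through Nf2 mouse 649 and DKO mouse 915, while 4 of 6 DKO mice lay below the lowest Nf2 mouse. The log2 fold change was -0.45 ± 0.14 (SE).

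The receptors bind pairs of a hexamer, most often as direct repeats with 5 or 2 bases between them. Promoter windows from RefSeq (GRCm38.p6), each 250 bases before to 50 after a start site, were matched for 7 of the 9 genes, in 13 windows. Both strands were searched for direct repeats of any of the hexamers AGGTCA or AGGTGA or AGTTCA or AGTTGA or GGGTCA or GGGTGA or GGTTCA or GGTTGA. Of the 13 windows, 1 held a repeat with a spacing of 5 and none held one with a spacing of 2. Among all 32851 promoter windows, 0.323% held the first form and 0.472% the second. The window with the repeat belongs to Rarb, and the sequence is shown because it is the retinoic acid response element form that the receptor's own gene is known for, with its hexamers in capitals and the strand of the gene read 5′ to 3′.
Rarb, chr14:16575507-16575535, minus strand: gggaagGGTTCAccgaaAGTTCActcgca

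The first base of the repeat lies at -53 from the RefSeq start site at 16575476. In GENCODE M21, 2 of 7 Rarb transcripts contain the printed stretch, from their base 9 and base 293 on, and so start upstream of it. Where the other transcripts start was not examined. Gene-level counts sum transcripts with and without the stretch. A match to these letters is not a bound site, and the windows without one say nothing of receptors bound elsewhere. Across all tested genes whose promoter windows hold a repeat with a spacing of 5 (33 genes), the median log2 fold change was -0.02, with 2 lower past the edgeR threshold (Irak4 and Sumf1) and 0 higher. Over all tested genes 0.568% passed as lower and 0.372% as higher.

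Compared per transcript length, as CPM divided by exon length in kilobases (RPKM), Aldh1a1 was the most abundant of the 9 genes in both genotypes, at 319 ± 51.6 RPKM in Nf2 mice and 150 ± 26.5 RPKM in DKO mice (SD, n = 6). Dhrs3 followed with 45.3 ± 5.22 and 23.2 ± 6.52 RPKM, and Crabp1 with 16.5 ± 4.44 and 11.3 ± 3.54 RPKM. In Nf2 mice the ranges of these 3 genes did not overlap with each other or with that of Rarb, which came next at 3.80 ± 0.665 RPKM. The remaining 5 genes, Aldh1a2, Cyp26b1, Crabp2, Stra6 and Aldh1a3, had means of 1.15 to 2.99 RPKM, and each overlapped with its neighbour in the order.

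In DKO mice Aldh1a1 still stood apart, but Dhrs3 and Crabp1 overlapped, since the lowest Dhrs3 value was 15.6 RPKM and the highest Crabp1 value 15.9 RPKM. Aldh1a2 came next in DKO mice at 6.22 ± 2.96 RPKM, ahead of Rarb at 2.83 ± 0.575 RPKM, though each overlapped with its neighbours there. Aldh1a3 was last in both genotypes, at 1.15 and 1.12 RPKM.

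**Figure D2:**
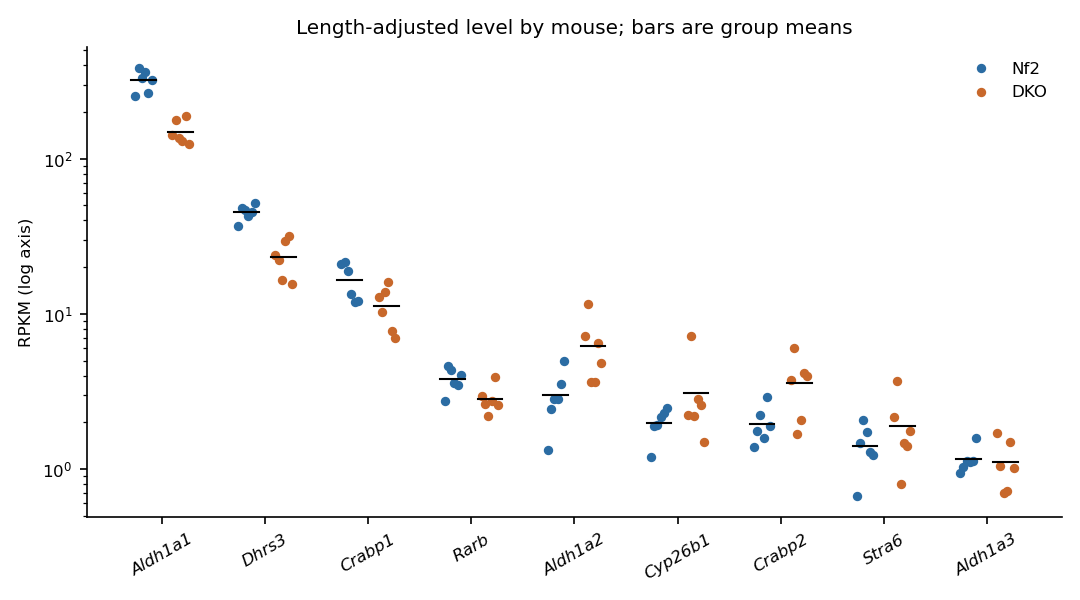
Length-adjusted level of the 9 genes in RPKM (vertical log axis), 1 point per mouse, Nf2 mice in blue and DKO mice in orange, with black lines at the group means. Aldh1a1 lies between 125 and 382 RPKM in all mice, whereas the 6 genes on the right stay below 12 RPKM.

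Of the summed RPKM of the 3 dehydrogenases, Aldh1a1 made up 98.7% ± 0.469 in Nf2 mice and 95.4% ± 1.41 in DKO mice (SD, n = 6). The share of Aldh1a2 ran from 0.515% to 1.53% in the Nf2 group and from 2.63% to 6.03% in the DKO group, without overlap. The ratio of Aldh1a1 to Aldh1a2 ran from 64.2 to 192 in Nf2 mice and from 15.5 to 36.9 in DKO mice. The summed RPKM ran from 256 to 386 in Nf2 mice and from 131 to 196 in DKO mice. These shares combine 2 genes chosen on the same contrast and are a description of transcripts, not of enzyme amounts.

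Of 18295 genes tested between the genotypes, 0.94% passed an edgeR adjusted p of 0.05, which was 0.568% lower and 0.372% higher in DKO mice. Of the 9 genes, 2 were among the lower ones (Aldh1a1 and Dhrs3) and 0 among the higher ones, a count that the choice of genes used and from which nothing is read here. Likewise 2 of 9 did not overlap and were lower in DKO mice, where 1.04% of tested genes did so, and 0.902% did not overlap and were higher. Their median log2 fold change was -0.07, with 4 positive and 5 negative values, and that of all tested genes was 0.005.

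The other genes of the pathway were taken from 7 lists with 65 genes, of which 51 could be tested. These lists were chosen with earlier results of these data known, so their counts are a description. The 14 that could not stayed at or below 1.87 CPM in every mouse, among them Rpe65, Rbp3 and Stra8. Of the 51, 2 were lower in DKO mice past the edgeR threshold and 0 were higher, against 0.568% and 0.372% of all tested genes. Their median log2 fold change was -0.02, with 24 positive and 27 negative values. At an unadjusted edgeR p under 0.05, 3 were higher and 10 lower, where 2722 of all 18295 tested genes had such a p in either direction.

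Lrat encodes lecithin retinol acyltransferase, which esterifies retinol for storage. Its level in Nf2 mice ran from 7.48 CPM (mouse 1048) through a median of 15.7 to 25.3 CPM (mouse 702), and in DKO mice from 2.46 CPM (mouse 887) through a median of 3.65 to 10.0 CPM (mouse 915). All DKO mice except 915 were below every Nf2 mouse. The log2 fold change was -1.77 ± 0.34 (SE, edgeR adjusted p = 0.0284). With 1 mouse left out at a time, Lrat stayed past the threshold in 4 of 12 fits, at log2 fold changes between -2.14 and -1.59.

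Adh1 encodes a class I alcohol dehydrogenase that can oxidise retinol to retinaldehyde. It had 11.7 to 20.6 CPM in Nf2 mice with a median of 14.7, and 5.36 to 9.45 CPM in DKO mice with a median of 7.06. The groups did not overlap, and the log2 fold change was -1.07 ± 0.17 (SE, edgeR adjusted p = 0.00838). The call held in 12 of 12 fits without 1 mouse. Adh7, another retinol-oxidising alcohol dehydrogenase, differed by -0.64 ± 0.25 on the log2 scale (SE, edgeR adjusted p = 0.234).

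For the remaining enzymes the genotypes did not differ past the threshold. Rdh10, which carries out the main retinol oxidation of the embryo, had a median of 12.7 CPM in Nf2 mice and 13.3 in DKO mice, with a log2 fold change of 0.08 ± 0.12 (SE, edgeR adjusted p = 0.814). Among the 11 tested genes of retinol and retinaldehyde conversion the median log2 fold change was -0.02, and among the 6 of retinoid storage and provitamin A cleavage it was -0.31. Cyp26a1 and Cyp26c1, relatives of Cyp26b1, stayed at or below 1.78 CPM in every mouse.

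Among carriers, Rbp4, which transports retinol in plasma, had the highest estimate of the pathway, 1.64 ± 0.47 (SE), but did not pass the threshold (edgeR adjusted p = 0.113). Its level was 0.681 to 2.65 CPM in Nf2 mice and 1.61 to 16.4 CPM in DKO mice, with mouse 886 highest and mouse 887 lowest in DKO. Without mouse 886 its log2 fold change was 1.05, and by limma voom with all mice it was 1.17. DESeq2 called it (adjusted p = 0.0113). In simulated data for the genotype contrast, 21.3% of DESeq2 calls and 6.13% of edgeR calls were false. No outlying mouse was simulated, so these shares do not decide the call of Rbp4.

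None of the 6 tested receptors of the lists passed the edgeR threshold. Rara had a log2 fold change of -0.22 ± 0.09 (adjusted p = 0.285), Rarg -0.14 ± 0.07 (adjusted p = 0.341) and Rxrg -0.37 ± 0.16 (adjusted p = 0.302), all SE. Rxra and Rxrb, shared partners of many nuclear receptors, had 0.02 ± 0.12 and -0.03 ± 0.05 (SE). Nrip1, a corepressor that retinoic acid is known to induce, had 0.04 ± 0.11 (SE, edgeR adjusted p = 0.904).

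Of the 13 known retinoic acid targets tested, 7 had positive and 6 negative log2 fold changes, with a median of 0.0004, and none passed the threshold. At an unadjusted edgeR p under 0.05, 4 were lower (Rarres2, Nr2f1, Nr2f2 and Zfp703) and 1 was higher (Meis2). Over all 18295 tested genes, 2722 had such a p in either direction. The lowest was -0.45 ± 0.14 for Rarres2, a chemoattractant precursor (SE, edgeR adjusted p = 0.136), and the highest was 0.34 ± 0.10 (SE) for Meis2, a homeobox factor, with an adjusted p of 0.126.

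**Figure D3:**
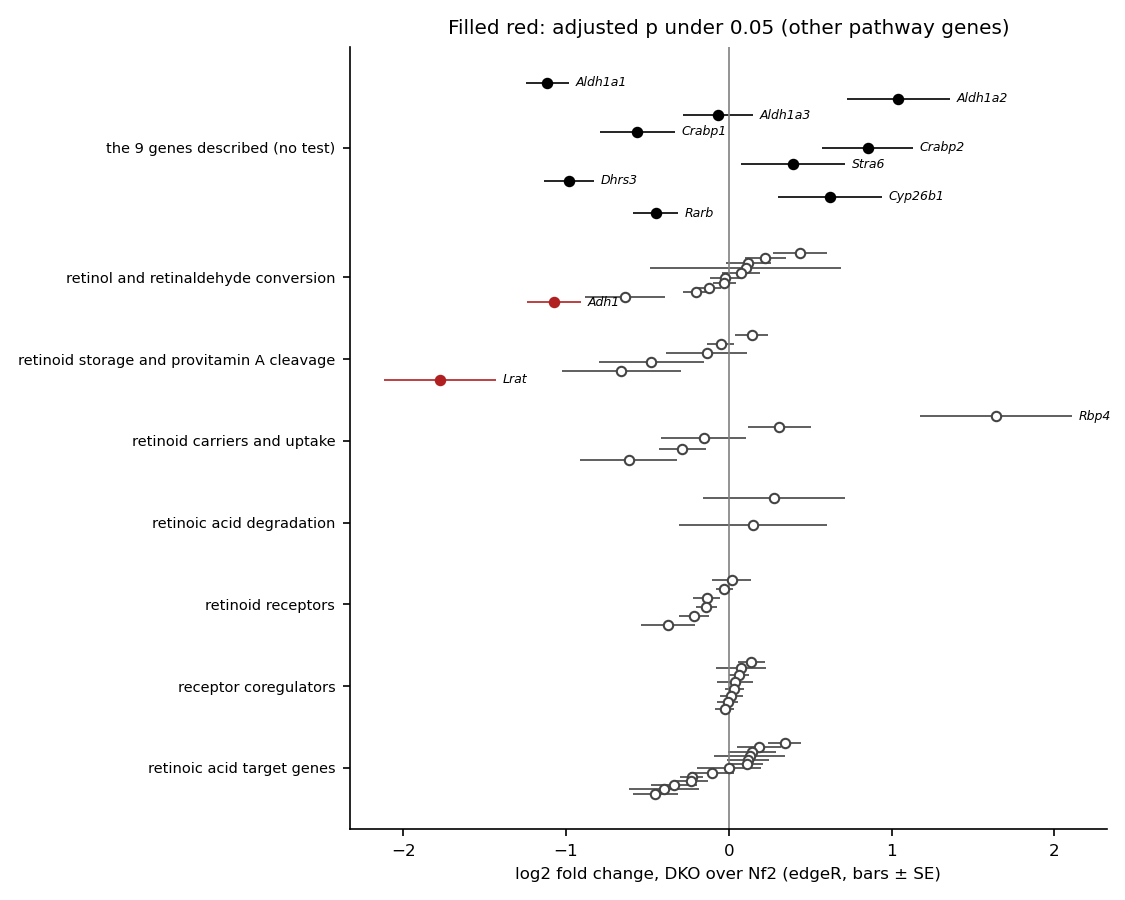
Log2 fold change, DKO over Nf2 (horizontal axis, bars ± SE), of the 9 genes (black, top block, named, shown without a test) and of the 51 other tested pathway genes by list (circles), with genes past an edgeR adjusted p of 0.05 in filled red. Only Lrat and Adh1 are red, both below 0, and the receptors range from -0.37 to 0.02.

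The level of meningeal cell markers varied between mice. The list held 18 markers, all detected in every mouse. Their summed level was 319 to 512 CPM in Nf2 mice and 368 to 1831 CPM in DKO mice. Ptgds and Cdh1 made up most of the sum in every mouse. Mouse 886 had 1308 CPM of Ptgds, and mouse 649 had 200 CPM of Cdh1, the highest Cdh1 level of all mice. Mouse 649 had the lowest sum of all and mouse 886 the highest, while mouse 887 had the lowest among DKO mice. Mice 649 and 887 also had the highest mitochondrial shares, whose part in the levels of these mice was not tested. Of the 18, 14 had positive log2 fold changes with a median of 0.71 over the list. At an unadjusted edgeR p under 0.05, 12 were higher, where 2722 of all 18295 tested genes had such a p in either direction. The list was chosen with earlier results of these data known, so nothing is read from this count. After adjustment 0 passed the threshold. Ptgds, a prostaglandin synthase abundant in the meninges, went from a mean of 127 CPM in Nf2 mice to 492 CPM in DKO mice (edgeR adjusted p = 0.107), whereas Cdh1 and Wnt6, also on the list, had log2 fold changes of -0.01 and -0.02.

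Mice with more meningeal marker RNA had more Aldh1a2 within either genotype. Pearson's r between log2 levels was 0.87 in Nf2 mice (rho = 0.94) and 0.90 in DKO mice (rho = 0.94), with two-sided exact permutation p of 0.00278 and 0.0125 (n = 6 each). Leaving out the 2 mice farthest from the median of the marker mean gave 0.82 and 0.98. Neither relation passed after adjustment over the 234 relations described below (adjusted p = 0.217 and 0.325). The sum ordered Nf2 mice differently, as mouse 1049 had the most Aldh1a2 of them at a sum of 422 CPM. For the other genes an unadjusted exact permutation p under 0.05 was reached in 1 genotype at most.

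Crabp2 had r of 0.93 with the meningeal marker mean in DKO mice (rho = 0.83, exact permutation p = 0.00694, and 0.82 without the 2 farthest mice). In Nf2 mice r was 0.62 (rho = 0.77, exact permutation p = 0.199). Stra6 had r of 0.96 in DKO mice (rho = 0.83, exact permutation p = 0.0139; 0.65 without the 2 farthest mice) and 0.83 in Nf2 mice (rho = 0.09, exact permutation p = 0.104), where r turned to -0.77 without the 2 farthest mice. Cyp26b1 had r of 0.95 in Nf2 mice (rho = 0.83, exact permutation p = 0.0194; 0.55 without the 2 farthest mice) and 0.62 in DKO mice (rho = 0.26, exact permutation p = 0.21). The meningeal list was not the only one that these genes followed. Stra6 had higher values of r with the perineurial list, 0.99 in Nf2 mice (rho = 0.94, exact permutation p = 0.00278; 0.93 without the 2 farthest mice) and 0.97 in DKO mice (rho = 0.83, exact permutation p = 0.00694; 0.75 without them). Crabp2 had r of 0.98 with the choroid plexus list in DKO mice (rho = 0.83, exact permutation p = 0.00694, and 0.88 without the 2 farthest mice). Aldh1a2 had 0.94 there (rho = 0.94, exact permutation p = 0.00278, and 0.96 without them). In Nf2 mice Aldh1a2 had r of 0.85 with the choroid plexus list (rho = 0.60, exact permutation p = 0.0222, and 0.02 without the 2 farthest mice).

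Over 234 such relations, of 9 genes with 13 marker lists in 2 genotypes, 20 had an exact permutation p under 0.05 and 0 passed after Benjamini-Hochberg adjustment, where the lowest adjusted p was 0.217. Aldh1a1 and Dhrs3 had no relation to the meningeal marker mean that passed an unadjusted exact permutation p of 0.05 in either genotype. In Nf2 and DKO mice r was 0.49 and 0.53 for Aldh1a1 and 0.80 and 0.30 for Dhrs3. Without mice 649, 886 and 887, which have the most extreme meningeal sums of their groups or of all mice, the log2 fold change was -1.21 for Aldh1a1, -0.92 for Dhrs3, 0.72 for Aldh1a2, 0.71 for Crabp2, 0.10 for Stra6 and 0.07 for Cyp26b1. The part of the meningeal level in the differences of Aldh1a2, Crabp2, Stra6 and Cyp26b1 was not tested further.

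**Figure D4:**
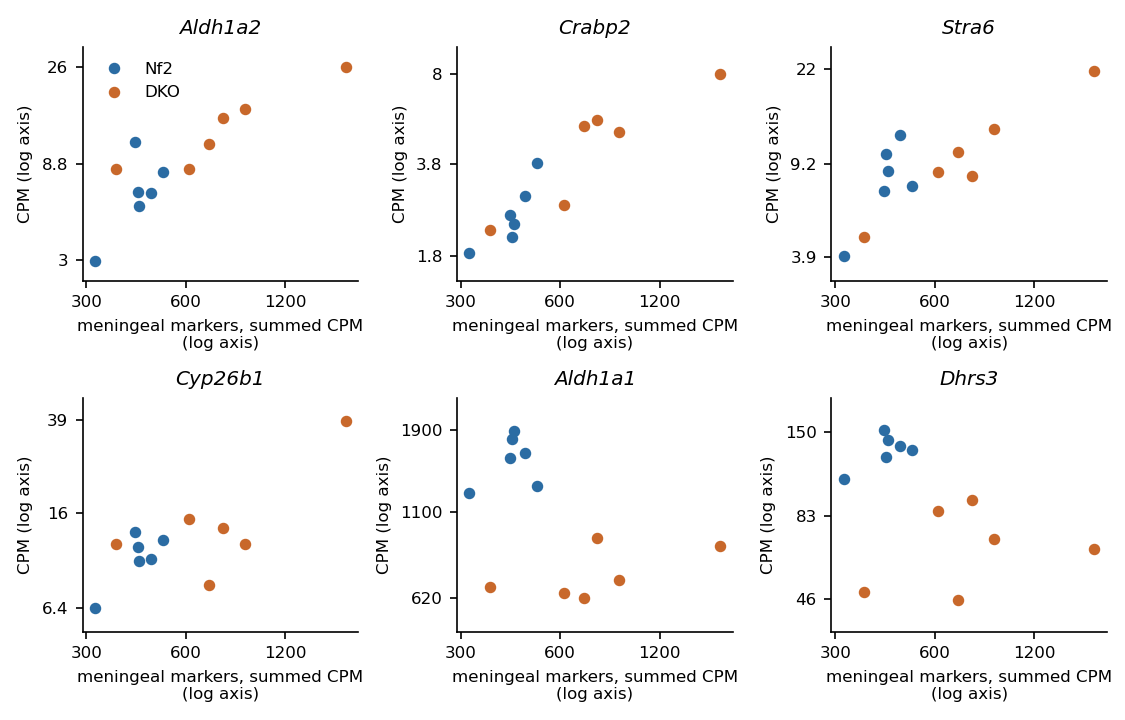
Level of 6 of the genes in CPM (vertical log axes) against the summed CPM of 18 meningeal markers (horizontal log axes). Each point is 1 mouse, Nf2 in blue and DKO in orange. Ptgds and Cdh1 make up most of the sum. Aldh1a2, Crabp2 and Stra6 are highest in the DKO mouse with the highest sum of 1831 CPM, whereas Aldh1a1 and Dhrs3 are lower in the DKO mice, of which only mouse 887 has a sum within the Nf2 range.

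Other marker lists were examined in the same way, and none held a gene past the edgeR threshold. An unadjusted edgeR p under 0.05 was reached by 5 macrophage, 6 skeletal muscle and 1 adipocyte markers, all lower. It was also reached by 4 choroid plexus, 2 perineurial and 2 fibroblast markers, all higher, and by none of the other lists. Over all 18295 tested genes, 2722 had such a p in either direction. These lists too were chosen with earlier results of these data known. The 8 macrophage markers all had negative log2 fold changes (median -0.38, summed level 169 to 247 CPM in Nf2 and 141 to 189 CPM in DKO mice). The 7 skeletal muscle markers also had negative values (median -2.27), but their sums varied widely, from 9.45 to 797 CPM in Nf2 and from 14.9 to 266 CPM in DKO mice. Choroid plexus markers had a median of 0.69 at sums of 4.90 to 18.8 CPM, with the defining gene Otx2 at or near 0 throughout. Perineurial cells had a median of 0.13, nerve fibroblasts 0.07, endothelial cells 0.21, pericytes and smooth muscle 0.12, adipocytes -0.21 and spinal cord neurons 0.73, the last at sums of 3.23 to 54.1 CPM. Sensory neurons (median -0.005), Schwann cells (-0.03) and satellite glia (0.002) were near 0. In Nf2 mice Aldh1a1 followed the mean log2 level of the fibroblast markers (r = 0.95, rho = 0.94, exact permutation p = 0.00556, adjusted p = 0.232, n = 6). Without the 2 farthest mice r was 0.80. In DKO mice Aldh1a1 did not follow that mean (r = -0.10, rho = 0.26, exact permutation p = 0.863). The difference between genotypes was not tested. The fibroblast sum ran from 1345 to 1644 CPM in Nf2 and from 1209 to 1797 CPM in DKO mice, and its part in the level of Aldh1a1 was not tested further.

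Between pairs of the 9 genes, 72 relations within a genotype were computed, of which 7 had an exact permutation p under 0.05 and 0 passed after Benjamini-Hochberg adjustment. The strongest was between Aldh1a2 and Cyp26b1 in Nf2 mice (r = 0.96, rho = 0.94, exact permutation p = 0.00278, adjusted p = 0.2, n = 6; r = 0.82 without the 2 farthest mice). In DKO mice the same pair had r of 0.69 (rho = 0.14, exact permutation p = 0.136; 0.28 without the 2 farthest mice), with mouse 886 highest for both. Aldh1a2 and Crabp2 had r of 0.91 in DKO mice (rho = 0.77, exact permutation p = 0.0125, adjusted p = 0.343; 0.79 without the 2 farthest mice) and 0.55 in Nf2 mice (rho = 0.60, exact permutation p = 0.25). Dhrs3 and Rarb, both known targets of retinoic acid, had r of 0.86 in Nf2 mice (rho = 0.77, exact permutation p = 0.0333, adjusted p = 0.343) and 0.77 in DKO mice (rho = 0.89, exact permutation p = 0.0569, adjusted p = 0.385).

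Genes whose levels followed each of the 9 most closely were ranked among 11966 genes by Pearson's r over 12 mice, after the mean of each genotype had been removed. For Aldh1a2 these were Foxc1 (r = 0.93) and Foxd1 (r = 0.92), 2 transcription factor genes of the meningeal marker list, and Vtn (r = 0.92). Vtn, which encodes vitronectin, was also among the nearest to Crabp2 (r = 0.89), with Mars2 (r = 0.92) and Slc6a20a (r = 0.91). Stra6 was followed by Igfbp6 (r = 0.96), Sema3d (r = 0.95) and Dld (r = 0.94). For Cyp26b1 they were the mitochondrial enzyme genes Dhtkd1 (r = 0.96) and Aldh6a1 (r = 0.92), with Sfxn2 (r = 0.92). For Aldh1a1 they were Msl2, Cntln and Scd2 (r = 0.92, 0.92 and 0.91), a desaturase gene in the last case.

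Dhrs3 was followed by Eml3, Bcl2l11 and Dclre1a (r = 0.92, 0.91 and 0.89), and Rarb by Tmem196, Arl5b and Sin3a (r = 0.93, 0.93 and 0.92). The nearest genes to Crabp1 were Ifi27l2a, St6galnac5 and Ifitm3 (r = 0.92, 0.88 and 0.84), of which the first and last are interferon-responsive. Aldh1a3 had the weakest neighbours, Slc37a2, Polr3k and Cfi (r = 0.85, 0.82 and 0.81). Of these genes Cfi, complement factor I, differed between genotypes past the threshold (log2 fold change -1.66 ± 0.34, SE, edgeR adjusted p = 0.035). The values of r are the highest of many and share library and depth, so they rank genes and show no common control.

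Sex was examined by label. None of the 9 genes differed between mice labelled male and female past the edgeR threshold with genotype as a covariate, where 0.0164% of tested genes passed, and none showed a genotype difference that depended on sex past it, where 0.0109% did. By DESeq2 and by limma voom the count was also 0 in both comparisons. An unadjusted edgeR p under 0.05 was found for 533 of 18295 genes by sex and for 874 by interaction. Of the 9 genes, 1 had such a p in each comparison. For the sex difference this was Aldh1a2, with a male minus female log2 difference of -0.68 ± 0.27 (SE) and an adjusted p of 1.00. Its means were 8.58 ± 2.48 CPM in females and 4.94 ± 1.75 CPM in males among Nf2 mice, and 16.9 ± 8.88 and 11.3 ± 3.20 CPM among DKO mice (SD, n = 3 each).

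For the dependence on sex it was Crabp1. Its means in Nf2 mice were 10.0 ± 0.655 CPM in those labelled female and 16.4 ± 1.12 CPM in those labelled male, without overlap. In DKO mice they were 9.89 ± 1.46 and 8.20 ± 3.98 CPM (SD, n = 3 each). The highest Nf2 level, 17.2 CPM, was that of mouse 702, labelled male but with Xist and Ddx3y like the females. The separation in Nf2 mice therefore holds by label and not by these sex-linked genes. The log2 fold change of DKO over Nf2 was -0.02 ± 0.16 in females and -1.03 ± 0.31 in males (SE). The interaction was -1.01 ± 0.37 (SE, edgeR adjusted p = 0.92), and -0.97 ± 0.41 without mouse 702 (adjusted p = 0.772), so the difference between the sexes did not hold up over all genes tested. Aldh1a1 and Dhrs3 were lower in DKO mice of either label, with log2 fold changes of -1.07 ± 0.17 and -1.16 ± 0.14 in females and -1.17 ± 0.21 and -0.82 ± 0.25 in males (SE).

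**Figure D5:**
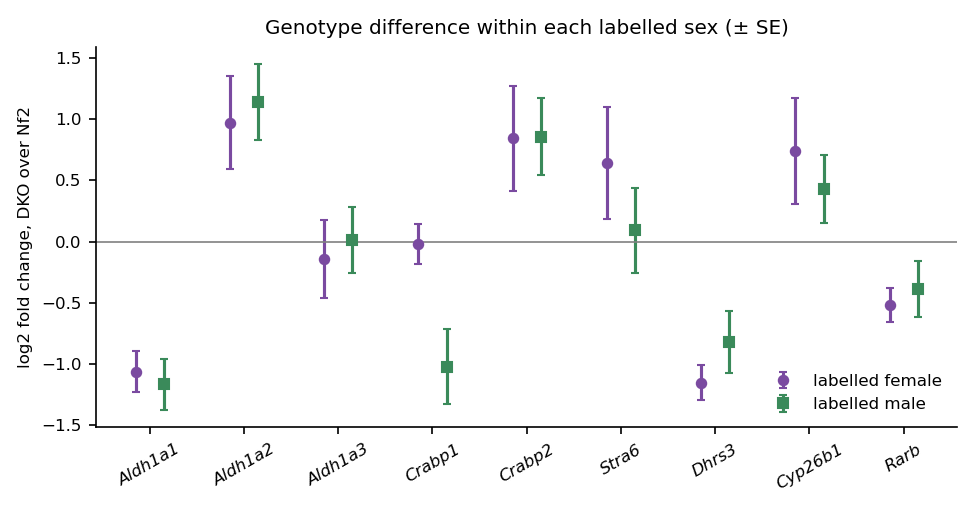
Log2 fold change, DKO over Nf2 (vertical axis, bars ± SE), of the 9 genes in mice labelled female (purple circles) and labelled male (green squares), 3 mice per genotype in each. Aldh1a1, Dhrs3 and Rarb lie below 0 and Aldh1a2 and Crabp2 above 0 in both, whereas Crabp1 is at -0.02 in females and -1.03 in males.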

How the data were processed

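Libraries of poly(A) RNA were made and sequenced by a commercial provider. The values deposited by the authors are unnormalized read counts for each Ensembl gene in each mouse. The submitters' processing notes name Trimmomatic 0.36, STAR 2.5.2b, featureCounts with Subread 1.5.2, and GRCm38. The annotation release, strandedness and treatment of reads with several matches are not given in the sources used here. Coordinates and exon lengths were taken from GENCODE M21, which held 99.5% of the gene identifiers.

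CPM used the library total, and RPKM divided CPM by the merged exon length. Counts were fitted in R 4.3.3 with edgeR 4.0.16: filterByExpr by genotype, TMM factors, and the quasi-likelihood F test over all 12 mice, with Benjamini-Hochberg adjustment over 18295 genes and a threshold of 0.05. Sex and its interaction with genotype were fitted likewise. Correlations used log2(TMM-scaled CPM + 0.5) within genotype. In the two-sided exact permutation tests, p was the share of all pairings with an absolute r or rho at least as large. A marker list entered as the mean of these log2 values over its genes with a mean of at least 0.5 CPM, not as the summed CPM. The fits were tested on simulated data, in which DESeq2 made more false calls than edgeR or limma voom. Alternatives were other scaling factors, other filters (none, or 1 CPM in 6 mice), DESeq2 1.42.0, limma 3.58.1 voom with quality weights, sex as a covariate, each sex alone, each mouse left out, and, for correlations, a pseudocount of 4, no scaling and Spearman's rho. Males without mouse 702, and all mice but 649, 886 and 887, were added after seeing the data.

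The 9 genes, the 7 pathway lists and the 13 marker lists were chosen with earlier results of these data known. Genes were named by rule: the 9 genes, pathway genes past the threshold, 10 central pathway genes whatever their values (1 of them is not reported here), the 3 most alike genes per member among those with at least 5 CPM, and abundant markers. Adh7, Rpe65, Rbp3, Stra8, Cyp26c1, Rarres2, Nr2f1, Nr2f2, Zfp703, Meis2, Cdh1, Wnt6, Otx2, Irak4 and Sumf1 were named after their values were seen.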

Additional observations from a re-analysis of the deposited data

Results flagged for a closer look

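In 26 groups of 6 mice, covering the 9 genes, Lrat, Adh1, Rbp4 and the meningeal sum in either genotype, 5 values stood far from the rest of their group. Chance flags about 1 in 20 groups, but the 5 values came from 3 mice and values of 1 mouse are not independent. DKO mouse 886 had 3 of them. It had 38.7 CPM of Cyp26b1 where the nearest DKO mouse had 15.2, and 16.4 CPM of Rbp4 where the nearest had 6.45. Its meningeal marker sum was 1831 CPM where the nearest had 907, and Ptgds made up 1308 CPM of it. Nf2 mouse 1049 had 7.36 CPM of Aldh1a3, with the next Nf2 mouse at 5.19. DKO mouse 915 had 10.0 CPM of Lrat, with the next DKO mouse at 5.24.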

How the results depend on the processing

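No paired analysis was possible because mouse numbers are not shared between the genotypes. Among the 24 alternatives, Aldh1a1 ran from -1.21 to -1.03 and Dhrs3 from -1.16 to -0.75 on the log2 scale. Aldh1a2 (0.72 to 1.24), Crabp2 (0.65 to 0.99), Stra6 (0.09 to 0.64), Cyp26b1 (0.07 to 0.76), Rarb (-0.56 to -0.25) and Crabp1 (-1.03 to -0.02) kept their sign, and Aldh1a3 was positive in 6. Genes past the threshold numbered 172, 831 with DESeq2, 521 with limma voom, 57 in females, 2 in males (9 without mouse 702), 312 without mice 649, 886 and 887, and 81 to 217 without 1 mouse, fewest without Nf2 mouse 918. Other pathway genes past it numbered 2, 6 with DESeq2, 0 in either sex alone and 1 to 2 without 1 mouse. Lrat passed in none of the fits of 1 sex, nor without mice 649, 886 and 887 (adjusted p = 0.0751), and Adh1 passed there (adjusted p = 0.0168) but not in either sex alone, where fewer mice were tested. Rbp4 passed without mice 649, 886 and 887 (adjusted p = 0.0241). The causes were not tested. The counts of 0 for sex, interaction and correlations stayed 0 in every alternative run. Another scaling moved the median of all genes to at most 0.02. Each group had 6 mice, and Crabp2 rests on few reads.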
